A study of Mus musculus with 899 samples.

Results

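Among the 1915 mature miRNA counted in mouse plasma, 7 are known as miRNA of nervous tissue, and their reads were followed here by name: mmu-miR-9-5p, mmu-miR-9-3p, mmu-miR-124-3p, mmu-miR-128-3p, mmu-miR-129-5p, mmu-miR-219a-2-3p and mmu-miR-384-5p. They were chosen for the tissues in which they are abundant, neurons or oligodendrocytes (the cells that make myelin). Their level in these samples was not a rule of the choice, but earlier results of these data were known when it was made. The name neural therefore describes those tissues and does not name the source of the reads in plasma.

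The study asked whether circulating miRNA changed after irradiation of the whole thorax, in a strain that develops pneumonitis (C3H, in full C3Hf/Sed/Kam) and in a strain that develops lung fibrosis (C57Bl/6). Plasma was sequenced from 196 gnotobiotic mice of both sexes, 64 irradiated and 32 sham-irradiated C3H and 68 irradiated and 32 sham-irradiated C57Bl/6, which gave 899 samples, 402 of C3H and 497 of C57Bl/6. Blood was taken 14 days before irradiation (PT), at day 2 or day 5 (D2, D5), and monthly to month 4 in C3H and month 6 in C57Bl/6 (M1 to M6), from males that were 8 to 10 weeks old and females that were 10 to 12 weeks old when randomized. The labels name no engineered allele, and the irradiated and sham mice of a strain were bled at the same times.

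Living mice were bled from behind the eye and terminal samples were drawn from the heart, and RNA was extracted from 25 µl of plasma. The titles of the samples divide each strain into 2 sets of mice (G2 and G4 in C3H, G1 and G3 in C57Bl/6), of which only G2 and G1 were followed past month 1. The paper reports that irradiated mice of both strains died of late injury, so late irradiated samples came from mice still alive. In C57Bl/6, 36 irradiated mice were sampled at month 2 and 8 at month 6, beside 16 sham mice at either time. Late effects of irradiation and survival cannot be told apart. A mouse was bled at day 2 or at day 5, not at both, and the same mice recur at the other times, so samples of different times are not independent. The libraries held 206490 to 11814515 reads (median 1475030), and 23 held fewer than 500000. In all 32 groups 4 miRNA of red blood cells and the liver miRNA mmu-miR-122-5p were read, and the sample with the least of the liver miRNA held 302.5 CPM. The group medians of the summed red blood cell miRNA lay between 319700 and 607400 CPM. Whole blood would also hold these miRNA, so they cannot tell plasma from blood with cells, and the label plasma was not tested. CPM here is the counts-per-million value after trimmed-mean (TMM) scaling between libraries, and RPM is the same value without that scaling.

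A miRNA is cut from a hairpin precursor, and 1 strand of the resulting duplex, named 5p or 3p for its arm, is loaded into an Argonaute protein. There the bases 2 to 8 of the strand, the seed, select messenger RNA for repression. In blood, miRNA circulate inside vesicles or bound to proteins, and they get there by secretion or from damaged cells. miR-9 acts in neural progenitors and neurons, miR-124 is a dominant miRNA of mature neurons, and miR-219 drives the maturation of oligodendrocytes. miR-128, miR-129 and miR-384 are enriched in neurons, and miR-128 is also made in many other tissues.

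Mature sequences of 5 members and of the miRNA that share a seed with one of them were taken from RefSeq (build GRCm38.p6) and are shown because the seed decides which miRNA act alike and which reads could be confused. Capitals mark the seed, and each strand is 21 to 23 bases long, so that read numbers were set side by side without a correction for length. How well each strand enters a library was not measured, so ratios of reads need not be ratios of molecules.
mmu-miR-9-5p: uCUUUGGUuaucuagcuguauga
mmu-miR-9-3p: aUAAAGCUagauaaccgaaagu
mmu-miR-128-3p: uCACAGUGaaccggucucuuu
mmu-miR-129-5p: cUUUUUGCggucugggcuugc
mmu-miR-384-5p: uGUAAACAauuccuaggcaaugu
mmu-miR-30a-5p: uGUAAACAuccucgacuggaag
mmu-miR-30c-5p: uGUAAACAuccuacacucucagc
mmu-miR-30e-5p: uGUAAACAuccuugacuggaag
The seeds of miR-9-5p, miR-9-3p, miR-128-3p and miR-129-5p were shared with 0 other miRNA in that table. Within the same table the seed of miR-384-5p is that of 3 members of the miR-30 family, which had a read in every sample. The table holds no entry for miR-124-3p or miR-219a-2-3p and may lack others, so further miRNA with these seeds can be missing from the counts. Over all samples miR-30a-5p, miR-30e-5p and miR-30c-5p reached 2547, 2314 and 709 RPM, 917, 833 and 255 times the reads of miR-384-5p. Reads carrying this seed in plasma were thus almost wholly those of the miR-30 family, and the sequences after the seed keep miR-384-5p apart from it.

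By the GRCm38 annotation miR-9 is made from 3 loci, in an intron of the lincRNA Gm3764 (Mir9-1, chr3:88215598-88215686, plus strand), in an exon of the lincRNA C130071C03Rik (Mir9-2, chr13:83738814-83738885, plus strand) and in an intron of Mir9-3hg (Mir9-3, chr7:79505264-79505353, plus strand). miR-128 lies in introns of the coding genes R3hdm1 (Mir128-1, chr1:128202361-128202430, plus strand) and Arpp21 (Mir128-2, chr9:112118636-112118711, minus strand). miR-129 lies in an exon of Gm3294 (Mir129-1, chr6:29022619-29022691, plus strand) and in an intron of Mir670hg (Mir129-2, chr2:94241364-94241453, minus strand). Mir384 is intergenic (chrX:105344282-105344369, minus strand). The copies of miR-9, miR-128 and miR-129 give the same mature strand, so reads could not be assigned to a locus.

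The members covered a wide range of abundance, and most sat at the limit of detection. miR-128-3p had reads in all 899 samples, with a lowest, median and highest level of 616, 1782 and 7116 CPM. miR-129-5p followed with a median of 9.61 CPM, and 23 samples (2.56%) held no read of it. miR-9-3p had a median of 5.15 CPM, and 111 samples (12.3%) were without a read. These members had a read in the largest shares of the samples.

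The other members were missing more often. miR-384-5p was without a read in 299 samples (33.3%) and miR-9-5p in 349 (38.8%), at medians of 1.56 and 1.25 CPM. miR-219a-2-3p had no read in 657 samples (73.1%), and miR-124-3p none in 741 (82.4%). The median sample held 3 reads of miR-384-5p and 2 of miR-9-5p, while that of miR-219a-2-3p and miR-124-3p held 0. As log2 CPM with a prior count of 2, the mean ± SD over all samples was 10.83 ± 0.58 for miR-128-3p, 3.42 ± 1.17 for miR-129-5p and 2.46 ± 1.14 for miR-9-3p. It was 1.43 ± 1.06 for miR-384-5p, 1.33 ± 1.08 for miR-9-5p, 0.60 ± 0.74 for miR-219a-2-3p and 0.47 ± 0.61 for miR-124-3p (n = 899 for each).

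Whether a read was found moved with the depth of the library for 5 members. Between the 225 shallowest libraries (up to 1090311 reads) and the 225 deepest (from 1983010 reads), the share without a read went from 53.3% to 24.4% for miR-9-5p, from 52.4% to 18.2% for miR-384-5p and from 25.3% to 7.11% for miR-9-3p. It went from 83.1% to 63.1% for miR-219a-2-3p and from 7.11% to 0% for miR-129-5p. miR-124-3p showed little such movement, with 83.1% in the shallowest and 80.9% in the deepest libraries. All 7 members had a read in 35 samples (3.89%), the most frequent number of members with a read was 5 (308 samples, 34.3%), and no sample lacked all of them.

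**Figure D1:**
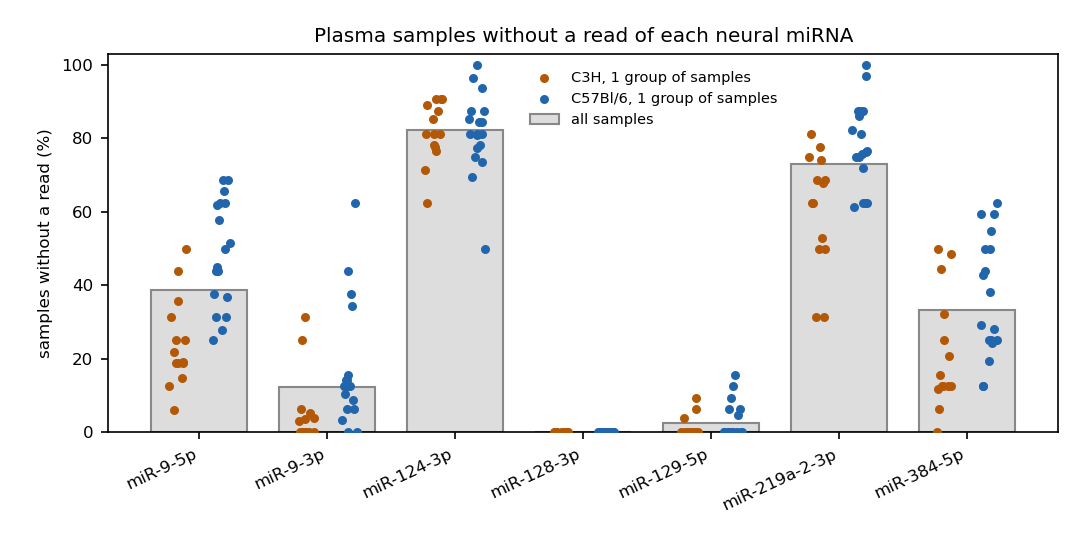
Share of plasma samples without a read of each neural miRNA (y axis, percent; x axis, the 7 miRNA). Grey bars are all 899 samples and points are the 32 groups of strain, time point and treatment, orange for C3H and blue for C57Bl/6. miR-128-3p is at 0% in every group, whereas miR-124-3p and miR-219a-2-3p are each absent from every sample of 1 C57Bl/6 group.

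In 2 groups a member had no read at all. No read of miR-124-3p was found in the 32 sham C57Bl/6 samples of month 1, which together held 65255073 reads, so that a level of up to 0.046 RPM (3 reads) was not detectable there. No read of miR-219a-2-3p was found in the 16 sham C57Bl/6 samples of day 5, with 14636546 reads and a limit of 0.205 RPM. These limits cover counting error only. The irradiated mice of those times held a read of miR-124-3p in 10 of 68 samples (14.7%) and of miR-219a-2-3p in 4 of 32 (12.5%). Fold changes fitted against these groups at 0 depend on the prior count, and their size is not interpreted. The comparison of miR-219a-2-3p at day 5 stays in the plot, the ranges and the counts of tests below.

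The arms of the hairpins differed in their number of reads. miR-9-3p had 9509 reads over all samples and miR-9-5p 3930, a ratio of 2.42, and the 3p strand was the more frequent in 659 of the 826 samples with a read of either (79.8%). The ratio was 2.40 in C3H and 2.44 in C57Bl/6. miR-129-5p had 25127 reads against 721 of miR-129-2-3p and 34 of miR-129-1-3p, and miR-384-5p had 4233 against 790 of miR-384-3p. miR-128-3p had 3030602 reads, against 768 of miR-128-1-5p and 1 of miR-128-2-5p. miR-124-3p had 1235 reads and its opposite arm, miR-124-5p, had 0. miR-219a-2-3p, with 1586 reads, was the arm with fewer reads beside miR-219a-5p with 2261, which can also come from the Mir219a-1 hairpin.

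Single libraries carried much of the reads of some members. The library with the most reads held 61.0% of all reads of miR-124-3p, 18.0% of miR-219a-2-3p, 11.7% of miR-9-5p and 8.43% of miR-129-5p. The same share was 3.95% for miR-9-3p, 3.57% for miR-384-5p and 0.991% for miR-128-3p. Its median over the 483 miRNA that passed the low-count filter was 1.42%. Of these 0 had a higher share than miR-124-3p or miR-219a-2-3p, 2 a higher one than miR-9-5p and 4 a higher one than miR-129-5p. miR-124-3p did not itself pass that filter, and a miRNA with fewer reads can have a higher share, as miR-128-2-5p did (100% of 1 read). Results that rest on such libraries are given below with and without them.

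**Figure D2:**
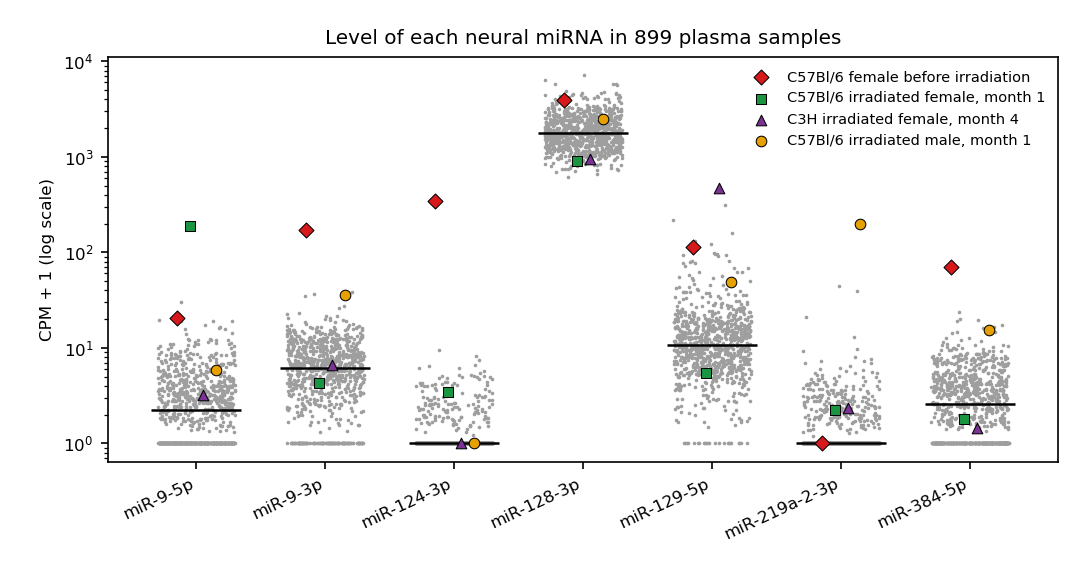
Level of each neural miRNA in every sample (y axis, CPM + 1 on a log scale; x axis, the 7 miRNA). Grey points are samples, horizontal lines are medians, and coloured symbols mark 4 libraries in every column; the C57Bl/6 female sampled before irradiation reached 342 CPM of miR-124-3p while the next highest sample reached 8.40 CPM.

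Across the 32 groups of strain, time and treatment the mean levels of a member spanned from 0.66 (miR-124-3p) to 2.07 log2 units (miR-9-3p). For none of the 7 members did any group differ from its neighbour in the order of means by more than the larger of their SDs. With 32 means in such a span and the SDs given below, a gap of that size was hardly possible. Whether the series has a break was therefore not tested. The lowest and the highest groups of miR-9-3p were C57Bl/6 sham at day 5 (1.05 ± 1.21 log2 CPM, SD, n = 16) and C57Bl/6 irradiated at month 2 (3.13 ± 0.96, n = 36). For miR-128-3p they were C3H sham at month 4 (10.24 ± 0.41, n = 16) and C57Bl/6 sham at month 6 (11.41 ± 0.64, n = 16). For miR-129-5p they were C57Bl/6 sham at month 2 (2.77 ± 0.85, n = 16) and C3H sham at month 2 (4.51 ± 1.22, n = 16). miR-384-5p ran from 1.02 ± 1.11 in irradiated C57Bl/6 mice at day 2 (n = 32) to 2.14 ± 1.18 in sham C3H mice at month 4 (n = 16), and miR-9-5p from 0.68 ± 0.79 in sham C57Bl/6 mice at day 5 (n = 16) to 1.98 ± 1.16 in irradiated C3H mice at month 3 (n = 27). miR-219a-2-3p reached 1.39 ± 0.99 in sham C3H mice at month 2 (n = 16) and miR-124-3p 0.89 ± 0.79 in irradiated C57Bl/6 mice at month 6 (n = 8), and the lowest group of each held no read. The extremes of miR-128-3p and miR-129-5p were sham groups, so their widest differences were not ones of treatment.

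Few differences between irradiated and sham mice were called for the neural miRNA, and the abundant miR-128-3p and miR-129-5p had none. The 2 treatments were compared within each strain and time by the quasi-likelihood F test of edgeR, p-values were adjusted by Benjamini-Hochberg over the 483 miRNA tested with a threshold of 0.05, and fold changes are irradiated minus sham in log2. Of the 7 members 6 passed the filter on low counts, and miR-124-3p did not. In C3H 1 of the 36 tests of a member at a time point was called (2.78%), beside 70 of 2898 for all miRNA (2.42%). In C57Bl/6 2 of 48 were called (4.17%), beside 184 of 3864 (4.76%). A plasma level cannot be divided into the number of cells that release a miRNA and the amount each releases, which cannot be told apart in these samples.

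Over all miRNA, the share called in C3H was 4.97% at day 2, 3.11% at day 5, 3.31% at month 1, 0.621% at month 2, 2.07% at month 3 and 0.414% at month 4. In C57Bl/6 it was 6.63% at day 2, 14.1% at day 5, 3.73% at month 1, 3.31% at month 2, 1.66% at month 3, 4.76% at month 4, 3.52% at month 5 and 0.414% at month 6. At the time with the most calls, day 5 in C57Bl/6, 0 members were called, and at day 2 in either strain 0 were called. All 3 calls were of miR-219a-2-3p and miR-9-5p, whose median sample held 0 and 2 reads, and each was lost without 1 library. Before irradiation, between mice later irradiated and later sham-treated, 0% of all miRNA were called in either strain and 0 of the 12 tests of members, with 0 members at an unadjusted p under 0.05 by edgeR, limma-voom or DESeq2. Over all miRNA in those 2 comparisons edgeR had 57 of 966 tests at an unadjusted p under 0.05, and limma-voom and DESeq2 also called 0.

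**Figure D3:**
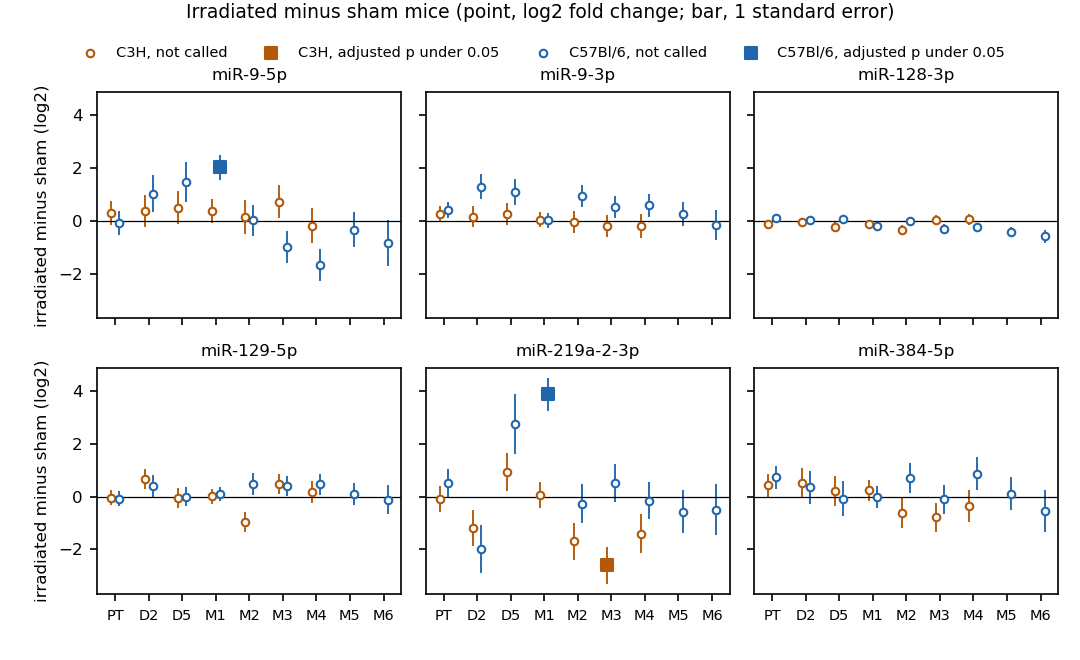
Irradiated minus sham log2 fold change (y axis) of the 6 neural miRNA tested, by time point (x axis; PT, before irradiation; D, day; M, month), orange for C3H and blue for C57Bl/6, with bars of 1 standard error. Filled squares mark the 3 calls (miR-219a-2-3p at -2.60 and 3.87, miR-9-5p at 2.04); the fitted value of miR-219a-2-3p at D5 in C57Bl/6 depends on the prior count, because that sham group had no read.

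miR-219a-2-3p, the oligodendrocyte miRNA, was called lower in irradiated C3H mice at month 3, with a log2 fold change of -2.60 (SE 0.70, adjusted p = 0.0148). Reads were found in 6 of 27 irradiated samples, the highest with 8, 7 and 4 reads, and in 6 of 16 sham samples, the highest with 84, 6 and 4. The median was 0 in both groups and the groups overlapped in all but the top sham sample, a female with 43.8 CPM. Without that library the log2 fold change was -0.18 (adjusted p = 0.947). In limma-voom it was -0.31 (adjusted p = 0.702) without a block, -0.30 (adjusted p = 0.719) with the mouse as a random block and -0.22 (adjusted p = 0.923) with a fixed block. The share of samples with a read did not differ detectably (two-sided Fisher's exact test, p = 0.313).

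In C57Bl/6 at month 1 miR-219a-2-3p was called higher in irradiated mice, with a log2 fold change of 3.87 (SE 0.61, adjusted p = 5.08e-08). Reads were found in 12 of 68 irradiated samples, the highest with 285, 14 and 5 reads, and in 4 of 32 sham samples, the highest with 4, 3 and 1. The medians were again 0, and 1 irradiated male with 196.5 CPM stood apart from the next highest irradiated sample at 3.04 CPM. Without it the log2 fold change was 0.73 (adjusted p = 0.543). In limma-voom it was 0.62 (adjusted p = 0.241) without a block, 0.62 (adjusted p = 0.245) with the mouse as a random block and 0.63 (adjusted p = 0.680) with a fixed block. Within the sets marked in the titles it was 0.43 (adjusted p = 0.913) in G1 and 4.98 (adjusted p = 4.46e-06) in G3, the set that holds this library. The share of samples with a read did not differ detectably (two-sided Fisher's exact test, p = 0.575).

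miR-9-5p, from the hairpins of a regulator of neural progenitors, was called higher in irradiated C57Bl/6 mice at month 1, with a log2 fold change of 2.04 (SE 0.47, adjusted p = 0.00117). Irradiated samples ranged from 0 to 187 CPM with a median of 1.60 CPM, and sham samples from 0 to 7.95 CPM with a median of 0.83 CPM. The highest irradiated samples held 460, 24 and 22 reads and the highest sham samples 12, 10 and 6, so that the groups overlapped apart from the top of the irradiated group. Without the library of 460 reads, an irradiated female, the log2 fold change was 0.89 (adjusted p = 0.334). In limma-voom it was 0.89 (adjusted p = 0.188) without a block, 0.89 (adjusted p = 0.185) with the mouse as a random block and 1.21 (adjusted p = 0.338) with a fixed block. In edgeR it was within G1 0.73 (adjusted p = 0.753) and within G3, which holds that library, 2.80 (adjusted p = 0.00267). Reads were found in 43 of 68 irradiated and 18 of 32 sham samples (two-sided Fisher's exact test, p = 0.518). At month 4 the same miRNA lay lower in irradiated C57Bl/6 mice, with a log2 fold change of -1.67 (SE 0.60) that was not called (adjusted p = 0.0751).

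**Figure D4:**
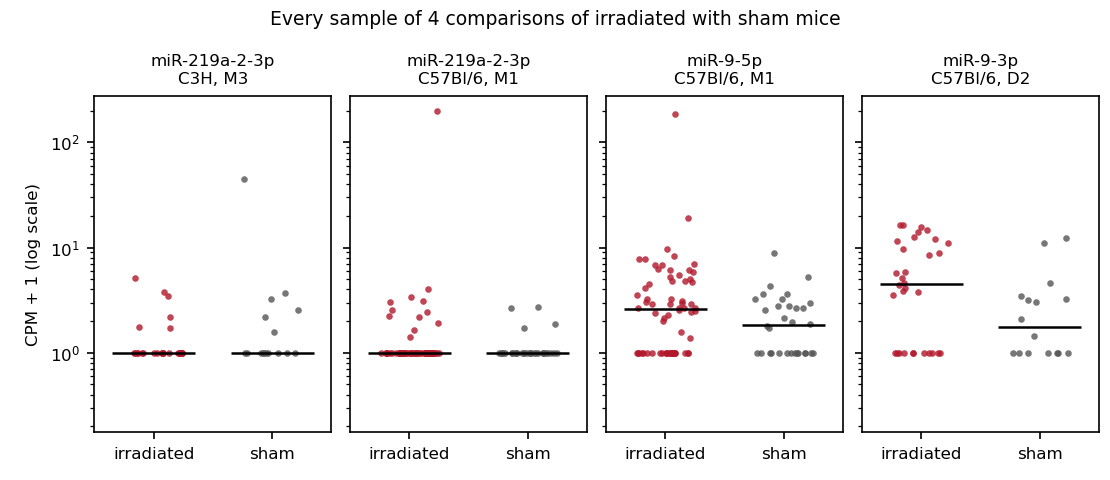
Every sample of the 3 comparisons called by edgeR and of miR-9-3p in C57Bl/6 at D2, which was not called (y axis, CPM + 1 on a log scale; x axis, irradiated in red and sham in grey; lines are medians). In each called comparison 1 sample stands apart, at 43.8 CPM (sham), 196.5 CPM (irradiated) and 187 CPM (irradiated), while the rest of the groups overlap.

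miR-9-3p, the arm of miR-9 with more reads, had the lowest adjusted p among the comparisons that were not called. In C57Bl/6 at day 2 irradiated samples ranged from 0 to 15.5 CPM with a median of 3.52 CPM (n = 32), and sham samples from 0 to 11.3 CPM with a median of 0.764 CPM (n = 16). The groups overlapped over most of their range, and 21 of 32 irradiated and 9 of 16 sham samples had a read. The log2 fold change was 1.30 (SE 0.46) and missed the threshold in edgeR (adjusted p = 0.0657). It passed in limma-voom (1.46, adjusted p = 0.0460), in DESeq2 (1.39, adjusted p = 0.0231) and with the mouse as a random block (1.45, adjusted p = 0.0434), and missed with a fixed block (1.08, adjusted p = 0.282). Within the sets it was 3.24 (adjusted p = 0.00340) in G1 and 0.77 (adjusted p = 0.626) in G3.

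The log2 fold change of miR-9-3p in C57Bl/6 was 1.11 (SE 0.50, adjusted p = 0.114) at day 5, 0.04 (SE 0.28) at month 1 and 0.94 (SE 0.42, adjusted p = 0.257) at month 2, and in C3H it ran from -0.19 to 0.27 over the 6 times. The day 2 sham samples shown in the plot of single samples were low beside all sham C57Bl/6 samples taken before irradiation, as described below for sham mice. The share without a read went from 15.6% before irradiation to 43.8% at day 2 in sham mice. In irradiated mice it went from 14.1% to 34.4%. Markers of other cells also differed in level at that time: the summed level of 3 miRNA of endocrine cells (mmu-miR-375-3p, mmu-miR-7a-5p and mmu-miR-7b-5p) ranged from 1306 to 7974 CPM in irradiated and from 531 to 1399 CPM in sham C57Bl/6 mice at day 2, and the medians of the liver miRNA were 1010 and 2506 CPM. The summed medians of 3 muscle miRNA were 12290 and 22030 CPM and those of 5 miRNA of retina and sensory cells 2507 and 2066 CPM, with overlapping ranges. Their part in the difference of miR-9-3p was not tested.

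miR-128-3p gave the most precise comparison, since every sample held reads of it. Its standard errors lay between 0.12 and 0.24, and its 14 log2 fold changes after irradiation lay between -0.58 and 0.06. The largest were in late C57Bl/6 mice, -0.42 at month 5 (SE 0.18, adjusted p = 0.199) and -0.58 at month 6 (SE 0.24, adjusted p = 0.492), and neither was called. The irradiated mice sampled then were those still alive, 21 at month 5 and 8 at month 6. At month 1 in C57Bl/6 irradiated samples ranged from 616 to 7116 CPM around a median of 1772 CPM and sham samples from 1128 to 5648 CPM around 2135 CPM, which overlap almost entirely. For miR-129-5p the standard errors were 0.27 to 0.54 and the log2 fold changes ran from -0.97 to 0.67. The lowest was in C3H at month 2 (-0.97, SE 0.38, adjusted p = 0.327), where irradiated mice ranged from 2.74 to 94.3 CPM (median 10.9, n = 28) and sham mice from 4.88 to 121 CPM (median 17.3, n = 16).

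miR-384-5p, whose log2 fold changes ran from -0.79 to 0.88, had a lowest adjusted p of 0.476 over its 14 comparisons. With standard errors of 0.41 to 0.81, changes of that size could not be told apart from 0 at this depth. The standard errors of miR-9-5p (0.44 to 0.88) and miR-219a-2-3p (0.50 to 1.14) were wider still. Of the 84 tests of members after irradiation, 14 had an unadjusted p under 0.05, 3 of 36 in C3H and 11 of 48 in C57Bl/6 (8.33% and 22.9%, beside 12.2% and 16.1% of all tests).

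The effect of irradiation was compared between the strains by an F test over the 6 times they shared, which called 4.35% of all miRNA. Among the 6 members miR-219a-2-3p was called (adjusted p = 7.23e-05) and the others were not, with adjusted p from 0.283 for miR-9-5p to 0.852 for miR-384-5p. The log2 fold changes of miR-219a-2-3p differed most at month 1, 3.87 in C57Bl/6 and 0.05 in C3H, and at month 3, 0.53 and -2.60, the comparisons that held the outlying libraries. Without the library with the most miR-219a-2-3p the adjusted p was 0.0816, without the 3 libraries with the most it was 0.682, and in limma-voom it was 0.166 without a block and 0.220 or 0.615 with the mouse as a random or fixed block.

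A test of whether irradiation acted differently in females and males over day 2, day 5 and month 1 called 0.414% of all miRNA in C3H and 5.38% in C57Bl/6. It called 0 of the 12 tests of members in edgeR, of which 2 had an unadjusted p under 0.05, and limma-voom also called 0. The members with the lowest values were miR-9-3p in C57Bl/6 (adjusted p = 0.0598) and miR-129-5p in C3H (adjusted p = 0.458).

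The neural miRNA were also followed over time in sham mice, in which age, repeated bleeding, the sets of mice still followed and the site of the last bleed changed together and cannot be told apart. An F test of the later times against the sample before irradiation called 46% of all miRNA in C3H and 62.9% in C57Bl/6. In each strain 3 of the 6 members were called, and miR-128-3p and miR-219a-2-3p were among them in both. miR-128-3p had an adjusted p of 0.00264 in C3H and 0.00146 in C57Bl/6, with opposite late changes. In C3H it fell by 0.44 on the log2 scale at day 2 (SE 0.17) and by 0.71 at month 4 (SE 0.17), and in C57Bl/6 its log2 change was 0.51 at month 5 and 0.60 at month 6 (SE 0.17 for each).

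miR-129-5p moved with time in C3H sham mice (adjusted p = 0.000233), with log2 changes from before irradiation of 1.09 at month 2 (SE 0.37) and 1.26 at month 4 (SE 0.36). In C57Bl/6 sham mice it was not called (adjusted p = 0.755). miR-219a-2-3p was called in C3H (adjusted p = 0.000164) and C57Bl/6 (adjusted p = 0.0263). Without the 3 sham libraries with the most reads of it the C3H value was 0.377, and without the library with the most in C57Bl/6 it was 0.0526. The C57Bl/6 test includes the day 5 sham group, in which no sample held a read of miR-219a-2-3p. In limma-voom its adjusted p was 0.0425 without a block, 0.0454 with a random and 0.125 with a fixed mouse block in C3H, and 0.0673, 0.0576 and 0.0837 in C57Bl/6. miR-384-5p was not called in C3H (adjusted p = 0.0929) and was called by limma-voom without a block (adjusted p = 0.00416) and with the mouse as a random (adjusted p = 0.00276) or fixed block (adjusted p = 0.00359). The same held for miR-9-3p in C3H, with an adjusted p of 0.728 in edgeR and of 0.0108, 0.00626 and 0.00289 in these limma-voom fits.

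miR-9-3p fell early in C57Bl/6 sham mice (adjusted p = 0.00847 over all times). Its log2 level fell by 1.52 at day 2 (SE 0.46) and by 1.61 at day 5 (SE 0.49), while at month 1 its log2 change was -0.06 (SE 0.34). No read was found in 5 of 32 sham samples before irradiation, 7 of 16 at day 2, 10 of 16 at day 5 and 2 of 32 at month 1. The median depth of these sham groups was 1205391 reads before irradiation, 1300997 at day 2, 855373 at day 5 and 1495616 at month 1, so depth was lower at day 5 and not at day 2. With every sample thinned to 200000 reads, a read was found in 58.9%, 26.7%, 23.1% and 65.5% of sham samples on average at the same times, so the order held at equal depth. Without the library with the most miR-9-3p the adjusted p of the F test was 0.0221, and in limma-voom it was 0.00256 without a block and 0.00154 or 6.2e-05 with the mouse as a random or fixed block. In C3H sham mice, where edgeR did not call miR-9-3p over time, the log2 changes were 0.59 (SE 0.40) at day 2 and 0.44 (SE 0.40) at day 5.

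Before irradiation, with 1 sample for each of 96 mice of a strain, 292 miRNA passed the filter, among them miR-9-3p, miR-128-3p and miR-129-5p. C57Bl/6 and C3H differed in 63.4% of all miRNA tested and in 0 of these 3 members in edgeR, of which 1 had an unadjusted p under 0.05, and limma-voom also called 0. The log2 difference, C57Bl/6 minus C3H, was 0.12 (SE 0.08, adjusted p = 0.168) for miR-128-3p, 0.41 (SE 0.23, adjusted p = 0.110) for miR-9-3p and -0.38 (SE 0.18, adjusted p = 0.0602) for miR-129-5p. With the title set within strain as a covariate the log2 difference of miR-9-3p was 0.60 and was called (adjusted p = 0.0107). miR-128-3p had medians of 1848 CPM in C57Bl/6 and 1871 CPM in C3H. Levels of miR-129-5p ranged from 0 to 113.5 CPM (median 7.95) in C57Bl/6 and from 0 to 80.4 CPM (median 11.1) in C3H, and without the library with the most miR-124-3p, which is also its highest C57Bl/6 library, the log2 difference was -0.53 (adjusted p = 0.00580).

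Whether a read was found before irradiation is given for the strains as a description. miR-9-3p had a read in 82 of 96 C57Bl/6 samples (85.4%) and 70 of 96 C3H samples (72.9%), and miR-124-3p in 22 (22.9%) and 10 (10.4%). miR-9-5p had one in 43 and 52, miR-129-5p in 93 and 89, miR-219a-2-3p in 24 and 22 and miR-384-5p in 47 and 49, in the same order of strains. The widest gaps were those of miR-9-3p and miR-124-3p, which were both read in more C57Bl/6 samples.

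The sexes differed in 2 members before irradiation, 1 in each strain, where 24% of all miRNA tested were called in C3H and 20.5% in C57Bl/6. Females were 10 to 12 and males 8 to 10 weeks old when randomized. In all comparisons of the sexes given here, sex and age therefore cannot be told apart. miR-9-3p was higher in C57Bl/6 females, with a range of 0 to 170.6 CPM and a median of 7.76 CPM (n = 48), than in males, with a range of 0 to 14.3 CPM and a median of 2.83 CPM (n = 48). The ranges overlapped below 14.3 CPM, and the log2 difference was 1.74 (SE 0.33, adjusted p = 4.6e-06). Without the library at 170.6 CPM it was 1.26 (adjusted p = 0.000882), and without the 3 highest 1.05 (adjusted p = 0.00568). In C3H the log2 difference of miR-9-3p was -0.09 (SE 0.31, adjusted p = 0.852). The summed level of 5 miRNA of retina and sensory cells had medians of 1660 CPM in C57Bl/6 females and 1404 CPM in males, with 0 of the 5 called between the sexes, and 1 of 2 tested endocrine and 1 of 3 muscle miRNA were higher in females.

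miR-129-5p was higher in C3H females, from 0 to 80.4 CPM with a median of 12.8 CPM (n = 48), than in males, from 0 to 33.3 CPM with a median of 9.51 CPM (n = 48). The log2 difference was 0.83 (SE 0.26, adjusted p = 0.0107), and the groups overlapped up to 33.3 CPM. It was not called by limma-voom or by limma on quantile-normalized log2 RPM, with adjusted p up to 0.157. Without the highest library it was 0.73 (adjusted p = 0.0267) and without the 3 highest 0.49 (adjusted p = 0.141). In C57Bl/6 the log2 difference of miR-129-5p was 0.33 (SE 0.26, adjusted p = 0.419). The 5 retina and sensory miRNA had summed medians of 1499 CPM in C3H females and 2064 CPM in males, with 0 called, while 1 of 4 red blood cell and 1 of 2 tested endocrine miRNA were higher and 1 of 4 leukocyte and platelet miRNA lower in females; their part in the differences between the sexes was not tested. The share of samples with a read did not differ detectably between the sexes for either miRNA (43 and 39 of 48 for miR-9-3p, 46 and 43 of 48 for miR-129-5p, two-sided Fisher's exact test, p = 0.386 and 0.435).

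In later samples of the same mice, given here as a description, the mean log2 CPM of miR-129-5p was higher in females in 11 of the 12 later groups of C3H, with female minus male differences from -0.18 to 1.39 (median 1.00). In C57Bl/6 it was higher in females in 9 of 16 later groups (median 0.01). miR-9-3p was higher in C57Bl/6 females in 7 of 16 later groups, with differences from -1.48 to 1.36 (median -0.11), and in C3H females in 7 of 12. The order seen before irradiation thus recurred in most later C3H groups for miR-129-5p and in fewer of the later C57Bl/6 groups for miR-9-3p.

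**Figure D5:**
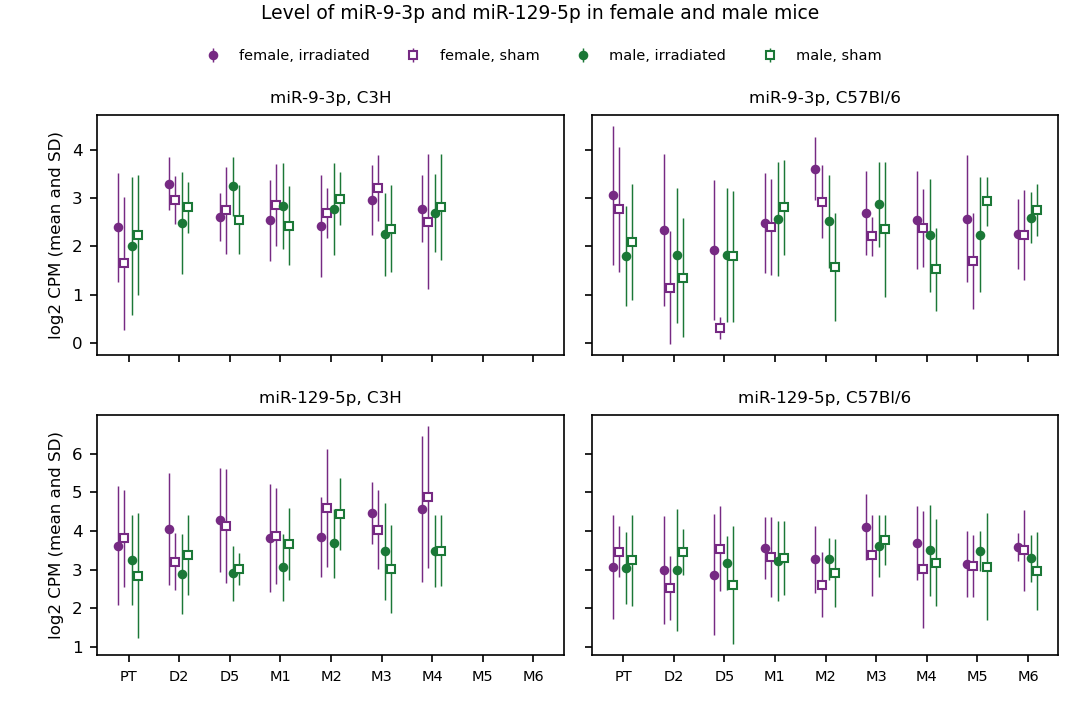
Level of miR-9-3p (top) and miR-129-5p (bottom) in females (purple) and males (green) of C3H and C57Bl/6 (y axis, log2 CPM as mean and SD; x axis, time point; filled circles irradiated, open squares sham). In C3H the female mean of miR-129-5p is the higher in 11 of 12 groups after irradiation, and in C57Bl/6 that of miR-9-3p is the higher before irradiation and in 7 of 16 later groups.

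A single plasma sample held most of the miR-124-3p reads of the series. A C57Bl/6 female bled before irradiation, in a library of 1990206 reads, had 753 reads of miR-124-3p (342 CPM), where the next highest of the 96 samples had 8.40 CPM. The same library held 376 reads of miR-9-3p (170.6 CPM, next 37.8), 151 of miR-384-5p (68.5 CPM, next 9.68), 250 of miR-129-5p (113.5 CPM, next 35.1) and 43 of miR-9-5p (19.5 CPM, next 7.99). It was the highest of the 96 for 5 of the 7 members, among them miR-124-3p, by which the library was picked. The same held for 3 of 22 other neural miRNA, of which 9 had a read in it. Of the 300 miRNA with 10 or more reads in it, which include members, it was the highest for 15.

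The remaining members behaved otherwise in that library. miR-128-3p reached 3888 CPM, with 7 of the other 95 samples higher, and no read was found of miR-219a-2-3p. By the ratio of CPM + 1 to the median of the other samples, the leading miRNA were miR-124-3p (343), miR-384-5p (69.5), miR-9-3p (26.8) and miR-9-5p (20.5), followed by mmu-miR-7b-5p (18.6), mmu-miR-384-3p (14.2), miR-129-5p and mmu-miR-129-2-3p (12.8 each). Of the other neuronal miRNA, mmu-miR-132-3p (158.8 CPM, median of the others 163.8) and mmu-miR-138-5p (10.9 CPM, median 10.6) lay near the median and mmu-miR-212-3p had 0 reads, so that some neuronal miRNA stood apart in this library and others did not.

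Markers of retina and sensory cells moved with them. Their summed level was 9105 CPM, beside 529 to 5480 CPM (median 1475) in the other C57Bl/6 mice of that group. All 5 of 5 markers lay above their median, and mmu-miR-183-5p stood at 8147 CPM, beside 5239 CPM in the next highest. Higher sums occurred elsewhere, up to 15040 CPM in sham C57Bl/6 at day 5 and 10980 CPM in sham C3H at month 4. In the whole series 9 other samples held more mmu-miR-183-5p and 57 held more mmu-miR-96-5p. No other sample exceeded 8.40 CPM of miR-124-3p. The summed level of the endocrine markers was 841 CPM, below the median of 1090 CPM, with mmu-miR-375-3p low (569.1 CPM, median 922.9), mmu-miR-7a-5p above its median (229.2 CPM, median 163.4) and mmu-miR-7b-5p the highest of the group (42.7 CPM). Blood had been drawn from behind the eye, and the part of the retina in this library was not tested. At day 2 the same mouse had 0 reads of miR-124-3p and 19 of miR-9-3p, and at month 1 it had 0 and 9.

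The other leading libraries each differed in which miRNA stood out. The C57Bl/6 female with 460 reads of miR-9-5p at month 1 had 8 reads of miR-9-3p (rank 45 of 68) and 6 of miR-124-3p. Its endocrine markers summed to 15580 CPM, beside 368 to 2129 CPM in the other samples, because mmu-miR-7a-5p reached 14780 CPM, where the highest other sample had 353 CPM. That mouse had 0 reads of miR-9-5p before irradiation and at day 5. Here 1 arm of miR-9 was high without the other.

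The C57Bl/6 male with 285 reads of miR-219a-2-3p at month 1 was also at rank 1 of 68 for miR-9-3p (50 reads) and miR-129-5p (69 reads) and at rank 2 for miR-384-5p (21 reads), with 0 reads of miR-124-3p. It held the highest liver marker of its group (mmu-miR-122-5p, 12540 CPM, others 874 to 10670 CPM), and 1 of 67 samples was higher for the muscle markers. The same mouse had 0 reads of miR-219a-2-3p before irradiation and at day 5. The C3H sham female with 84 reads at month 3 had 15 reads at month 2.

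The leading mouse for miR-129-5p was high at more than 1 time. An irradiated C3H female had 2117 reads at month 4 (474.6 CPM, next 37.3), after rank 1 of 28 at month 2 (94.3 CPM), rank 1 of 27 at month 3 (53.7 CPM), rank 3 of 58 at month 1 (37.3 CPM) and rank 27 of 64 before irradiation. Its retina and sensory markers summed to 5186 CPM at month 4, beside 865 to 4457 CPM in the other irradiated C3H samples. In sham C3H mice of that month the sum reached 10980 CPM. The part of any of these markers in the level of the members was not tested.

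Across samples the members varied largely apart from each other. Over the 96 samples before irradiation of each strain, Spearman's rho between pairs of members (21 pairs) ran from -0.003 to 0.39 with a median of 0.09 in C3H and from -0.35 to 0.35 with a median of 0.03 in C57Bl/6. These correlations, over samples that share the scaling and differ in depth, are descriptions without a test. The miRNA most like miR-128-3p among the 482 other miRNA were mmu-miR-191-5p (0.80), mmu-let-7f-5p (0.79) and mmu-let-7d-5p (0.77) in C3H and mmu-miR-98-5p (0.75), mmu-miR-29b-3p (0.75) and mmu-miR-130a-3p (0.75) in C57Bl/6, all abundant in many tissues.

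For the rarer members the closest miRNA were less alike and differed between the strains. For miR-9-3p they were mmu-miR-23a-3p (0.57), mmu-miR-34a-5p (0.56) and mmu-miR-146a-5p (0.55) in C3H, and mmu-miR-202-3p (0.42), mmu-miR-672-3p (0.41) and mmu-miR-218-5p (0.40) in C57Bl/6. For miR-129-5p they were mmu-miR-135a-5p (0.57), mmu-miR-141-3p (0.54) and mmu-miR-182-5p (0.51) in C3H, and mmu-miR-30a-3p (0.40), mmu-miR-27b-3p (0.40) and mmu-miR-379-5p (0.38) in C57Bl/6. The leaders for miR-384-5p were mmu-miR-3058-5p (0.45) in C3H and mmu-miR-7658-3p (0.46) in C57Bl/6. Of these, mmu-miR-218-5p is on the list of other neural miRNA.

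A list of 22 further miRNA of neurons, oligodendrocytes and the opposite arms of the members was followed beside them, and 7 of the 22 passed the filter. These were mmu-miR-132-3p, mmu-miR-137-3p, mmu-miR-138-5p, mmu-miR-212-3p and mmu-miR-218-5p of neurons, and mmu-miR-219a-5p and mmu-miR-338-3p, which act in oligodendrocytes. Between irradiated and sham mice edgeR called 0 of 98 tests, of which 12 had an unadjusted p under 0.05, while limma-voom called 2 and DESeq2 called 1. Tests at an unadjusted p under 0.05 were most frequent in C57Bl/6 at month 5 (4 of 7) and month 4 (3 of 7), where the median log2 fold change of the list was 0.54 and 0.65, beside -0.07 over all miRNA at either time. The 4 at month 5 did not share a direction, with mmu-miR-132-3p at 0.54 and mmu-miR-137-3p at 1.80, and mmu-miR-218-5p at -0.49 and mmu-miR-338-3p at -0.57. The lowest adjusted p were those of mmu-miR-132-3p (log2 fold change 0.57, SE 0.20, adjusted p = 0.0586) and mmu-miR-137-3p (2.14, SE 0.75, adjusted p = 0.0653) at month 4, named after their values were seen.

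Calls on this list with time, strain and sex were near or below the shares over all miRNA. Over time in sham mice 3 of the 7 were called in C3H (mmu-miR-132-3p, mmu-miR-218-5p and mmu-miR-338-3p) and 4 in C57Bl/6 (these and mmu-miR-138-5p), beside 46% and 62.9% of all miRNA. Before irradiation 4 of the list were tested and 2 were called between the strains, beside 63.4% of all miRNA: mmu-miR-132-3p was higher (log2 difference 1.30, SE 0.09, adjusted p = 1.11e-29) and mmu-miR-218-5p lower (-0.26, SE 0.11, adjusted p = 0.0358) in C57Bl/6 than in C3H. Between the sexes 1 of 4 was called in each strain, beside 24% and 20.5%: mmu-miR-338-3p was higher in C3H females (0.47, SE 0.17, adjusted p = 0.0277) and mmu-miR-132-3p lower in C57Bl/6 females (-1.02, SE 0.13, adjusted p = 1.94e-11). miR-128-3p, the abundant member, was not called between the strains or between the sexes before irradiation, while over time in sham mice it was called in both strains.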

How the data were processed

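Plasma miRNA was sequenced in 899 samples, and the authors deposited whole-number counts of reads per mature miRNA, trimmed and aligned to mouse miRNA (build mm10) with BaseSpace applications, after leaving out plasma with excess hemolysis and sequencing runs with few miRNA reads. Use of molecular identifiers is not given in the sources used here. The members and lists were chosen with earlier results of these data known. Counts were normalized by TMM (factors 0.372 to 1.59) and fitted with edgeR 4.0.16 in R 4.3.3, with a mean for each of 32 groups and 867 residual degrees of freedom. The filter filterByExpr kept 483 miRNA with 99.99% of the reads. On counts simulated for all 483 miRNA, with changes in C57Bl/6 at month 1, the test recovered 79% of 2-fold and 98% of 4-fold changes. It made 5 false among 182 calls. The F test between strains recovered 43% and 79%, with 8 false among 130 calls. No outlying libraries were added and members were not examined apart, so the simulation does not show how the tests perform for members with few reads. Alternatives used limma 3.58.1 and DESeq2 1.42.0. Mouse numbers in the titles pair samples of the same animal: after removing group means the mean correlation was 0.0857 over 1962 pairs of the same mouse and -0.00189 between mice. The named miRNA are all members, at most 6 called miRNA of the neural list, and the 3 with the highest Spearman correlation to each member found in at least 50% of samples before irradiation. Markers, libraries and further miRNA named singly were picked with their values in view.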

Additional observations from a re-analysis of the deposited data

Results flagged for a closer look

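The irradiated C57Bl/6 mice of month 6 (n = 8) held 1 sample far from the others for mmu-miR-9-5p. It had 18 reads (6.77 CPM), followed by samples with 4 and 2 reads and by 5 samples without a read. On the log2 CPM scale the gap to the next sample was 0.693 of the group's range. Of 7 such checks, 1 in each of the members, this was the only one past the limit, which chance passes in about 1 of 20 groups.

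The effect of irradiation on mmu-miR-219a-2-3p differed between the strains in the F test over the 6 shared times (adjusted p = 7.227e-05). Without the library with the most reads of it the adjusted p was 0.0816, and without the 3 libraries with the most it was 0.682.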

How the results depend on the processing

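The calls of members between irradiated and sham mice rested on few reads and single libraries. The 1 call in C3H fell to 0 under limma-voom, quantile-normalized log2 RPM, a minimum mean of 10 CPM, a fit of only the groups compared, a block for title set and sex, the mouse as a random or fixed replicate block, DESeq2, and without the library with the most CPM. The 2 calls in C57Bl/6 became 1 under limma-voom and with the mouse as a random block (miR-9-3p at day 2 in each, neither of the original 2), and 0 under quantile normalization, the minimum of 10 CPM, the fixed mouse block and without the leading libraries. They became 3 without a filter (adding miR-124-3p at month 1), with only the groups compared (miR-219a-2-3p at day 5), and with the block for title set and sex or DESeq2 (miR-9-3p at day 2). The added calls of miR-124-3p and miR-219a-2-3p were against sham groups without a read of them. The minimum of 10 CPM tests fewer members. For the other changes the cause was not tested. Before irradiation the count between mice later irradiated and later sham-treated went from 0 to 1 without a filter on low counts, and that between strains from 0 to 1 under quantile normalization, without a filter, with the title set as a covariate (miR-9-3p) and without the library with the most miR-124-3p. The 2 sex differences became 1 under limma-voom and quantile normalization, where miR-9-3p was left, and at the minimum of 10 CPM, where miR-129-5p was left. They became 4 without a filter, where miR-124-3p and miR-384-5p of the library with the most miR-124-3p enter. The 6 calls over time in sham mice became 3 at the minimum of 10 CPM and were 7 and 6 with the random and fixed mouse blocks. The strain difference of the irradiation effect went from 1 call to 0 under limma-voom, quantile normalization, the minimum of 10 CPM, the random and fixed mouse blocks and without the leading library, and the sex difference of that effect from 0 to 1 without the library with the most miR-124-3p. Leaving out the library with the most miR-124-3p, and leaving out leading libraries in the tests other than irradiated against sham, were chosen after seeing the data. No direction was reversed among the alternatives run.

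The share of samples without a read depends on the rule of detection. With at least 3 reads required it was 54.4% for miR-9-5p, 20.6% for miR-9-3p, 91.0% for miR-124-3p, 7.34% for miR-129-5p, 84.9% for miR-219a-2-3p and 49.9% for miR-384-5p. In libraries thinned to 200000 reads it was 71.4%, 40.1%, 94.0%, 20.3%, 90.7% and 68.2% in the same order. For miR-128-3p it was 0% under both. Depth limits every statement on the 4 members with a median of 3 reads or fewer.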
